A study of Oryctolagus cuniculus with 12 samples.

Results

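The 30 genes described here encode receptors for vasoactive agents and transmitters in the rabbit thoracic aorta. They were chosen by symbol alone: names beginning with ADRA, ADRB, ADORA, AGTR, AVPR, BDKRB, CHRM, DRD, EDNR, HRH, HTR, OXTR, P2RY, PTGER, PTGFR, PTGIR, TACR or TBXA2R, or made of NPY, a digit and R. They were 30 of the 1264 genes to which a probe could be tied by name, and 79 probes represented them. The rule also fits 45 receptor symbols of the rabbit annotation for which no probe was named here, among them all beta-adrenergic, muscarinic and vasopressin receptors, the thromboxane, prostacyclin and prostaglandin F receptors, BDKRB2, HTR2A, P2RY1, P2RY2 and ADORA2A. P2RY10, which the study reports as down-regulated against Control in both CoA and Corrected, also had no probe named here. Nothing is reported on any of these.

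Each array carried aortic RNA of 1 male New Zealand White rabbit, taken at 32 weeks of age as a 4 mm ring from the segment upstream of the coarctation site, between it and the left subclavian artery. Control rabbits (n = 4) were non-experimental, and no sham operation is described for them. In CoA rabbits (n = 4) a permanent silk suture had narrowed the aorta since 10 weeks of age, at a body weight of about 1 kg, to a gradient of 20 mmHg. In Corrected rabbits (n = 4) the suture was degradable Vicryl placed in the same way, so that the narrowing was relieved with time, although a modest residual narrowing is described for this model. Corrected replicate 3 was left out of every test, as the study's labels and methods do, and its values are given apart.

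Most of these genes encode G protein-coupled receptors. In an artery, those that couple to Gq or Gi, such as the alpha-1 adrenergic, angiotensin type 1, endothelin A and prostaglandin EP3 receptors, are known for contraction of smooth muscle or for lowering cyclic AMP. Those that couple to Gs, such as the prostaglandin EP2 and EP4 and the adenosine A2 receptors, raise cyclic AMP and are known for relaxation. HTR3B differs in kind, since it is a subunit of the serotonin-gated cation channel and is best known from neurons.

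Signals are log2 values after quantile normalization, and each is given in replicate order within its group. Where a gene had several probes, the brightest stands for it. A probe well above its local background on an array is called detected there. The tests took in the 27283 of 43603 probes that were detected on 8 arrays or more. A gene is said to have passed the test, or to have risen or fallen, where it differed more than 2-fold with an unadjusted p under 0.05 in limma, the lowest of the fold bins that the study used. No probe of the 27283 reached a Benjamini-Hochberg adjusted p under 0.05 with limma in any of the 3 comparisons, while 3877 (14.2%) had an unadjusted p under 0.05 in CoA vs Control, 2278 (8.35%) in Corrected vs Control and 1175 (4.31%) in CoA vs Corrected. In a ring of whole aorta, fewer cells of a type and less RNA per cell cannot be told apart.

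Some arrays stood apart. CoA replicate 2 had a median correlation of 0.873 with the other arrays used and Corrected replicate 4 one of 0.919, against 0.934 to 0.959 for the rest, and Corrected replicate 3 had 0.762. Control replicates 3 and 4 were the most alike pair, with an SD of their log2 difference of 0.153 against 0.300 for the next pair. All 4 CoA arrays were scanned together and with no other group, so scan run and CoA cannot be told apart. Corrected replicates 1, 3 and 4 likewise shared a scan run with no other group, so group and run cannot be told apart for them. Corrected replicate 2 was scanned with Control replicates 1, 2 and 4, and Control replicate 3 alone on another day. Between 55.8% and 77.7% of spots were well above background on the 11 arrays used, and 45.6% on Corrected replicate 3. The 4 smooth muscle markers with a probe (ACTA2, MYH11, DES and CALD1) were detected on every array, with a summed log2 level of 16.6 to 17.7 in Control, 16.6 to 17.8 in CoA and 17.6 to 17.8 in Corrected. Skeletal muscle markers had a probe by name for 5 of 11 genes. Their summed level was 15.4 on CoA replicate 2 against 8.74 to 12.1 on the other 10 arrays used. The high sum came from TNNC2 at 15.07 and CKM at 13.28. On that array MYH1 (4.45) and ATP2A1 (4.59) lay within the Control range, and TNNI2 (3.50) had its lowest value. MYH1 and ATP2A1 were highest on Corrected replicates 1 and 2. The part of these markers in the results was not tested.

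Of the 30 receptor genes, 13 were detected on all 12 arrays, 8 on 8 to 11 arrays, 6 on 1 to 7 and 3 on none. The 21 genes of the first 2 classes were tested. CoA replicate 2 was the highest of the 11 arrays for 9 of these 21 genes, and the highest CoA array for 17. These counts were not made for all probes, so whether they are particular to receptor genes was not tested. The median of the 21 signals was 7.54 on that array and between 5.85 and 6.45 on the other 10. Where leaving it out turned the direction of a fold change in CoA vs Control, both values are given.

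**Figure D1:**
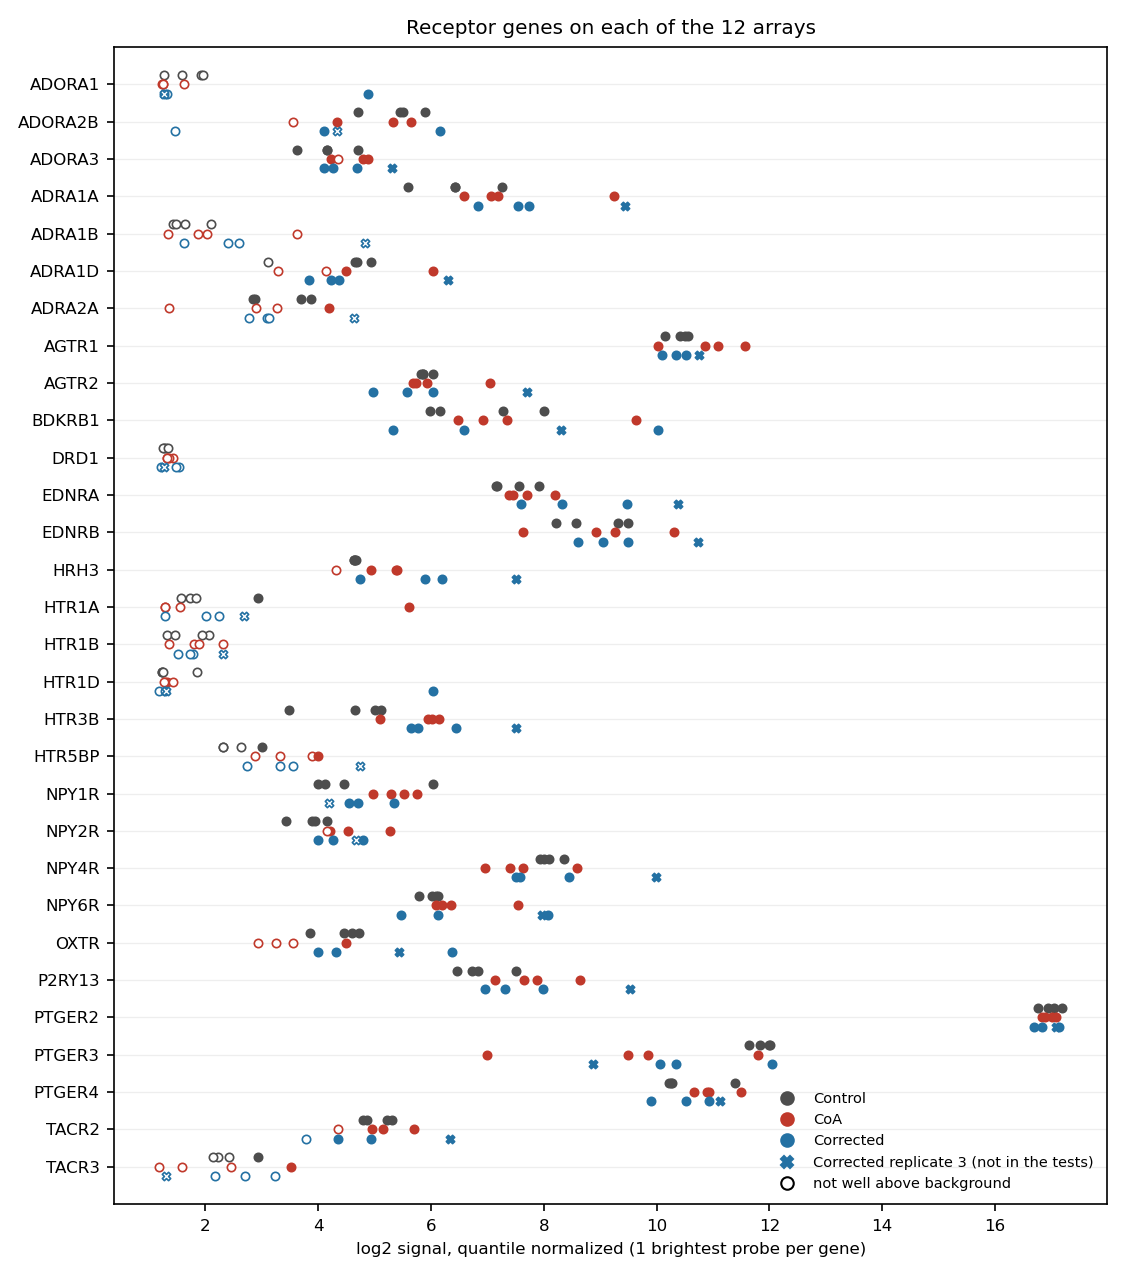
Log2 signal of the brightest probe of each of the 30 receptor genes (rows) on each of the 12 arrays, coloured by group, with open symbols where the probe was not well above background and crosses for Corrected replicate 3, which was not in the tests. The 9 genes detected on fewer than 8 arrays lie at the left with mostly open symbols, and the PTGER3 points of 3 CoA arrays lie below all 4 Control points. Corrected replicate 3 is the highest of the 12 arrays for 11 of the 21 genes tested, a count not made for all probes.

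In CoA vs Control, 2 of the 21 receptor genes passed the test, against 8.81% of all probes tested. HTR3B was higher in CoA (3.59% of all probes passed in that direction) and PTGER3 was lower (5.22%). For all probes this split depended on the scaling: 979 were higher and 1425 lower after quantile normalization, and 1529 and 1221 when each array was scaled to its 75th percentile, which moved the median of all probes from 0.06 to 0.22 on the log2 scale. Of the 21 genes, 15 had a positive log2 fold change (54.5% of all probes), and their median was 0.37 against 0.06 for all probes. Without CoA replicate 2 the count fell to 12 positive, and the median was 0.07 against 0.08 for all probes. In that fit 3 genes passed the test, the third being OXTR, against 7.11% of all probes. The genes that turned were EDNRB, ADRA1D and AGTR2, at -0.30, -0.37 and -0.11 without that array.

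In Corrected vs Control, 2 genes passed, HTR3B and EDNRA, both higher in Corrected (5.39% of all probes passed, and 2.41% of all probes in that direction). The median log2 fold change of the 21 genes was 0.19 against 0.03 for all probes, and 12 were positive (52% of all probes). This median turned to -0.08, with 10 positive, without Corrected replicate 1 (0.06 for all probes), and to -0.22, with 7 positive, with the scan run as a fixed block (0.05 for all probes). Both comparisons use the same 4 Control arrays. In CoA vs Corrected, OXTR was the 1 gene to pass, lower in CoA, against 2.77% of all probes (1.33% in that direction). The smallest adjusted p among the 21 genes was 0.271 against Control in CoA, 0.455 against Control in Corrected, and 1.00 between CoA and Corrected. Differences within 2-fold were found for 18, 17 and 19 of the 21 genes in these comparisons.

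**Figure D2:**
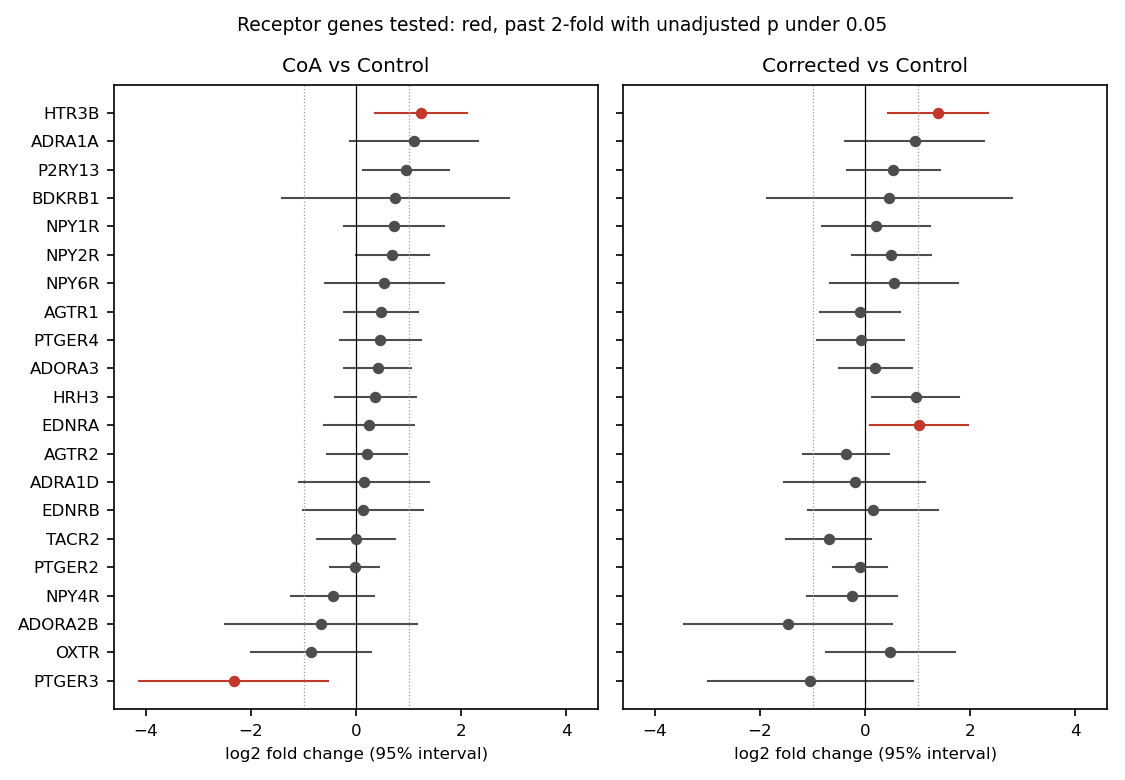
Log2 fold change with its 95% interval for the 21 receptor genes tested, in CoA vs Control (left) and Corrected vs Control (right), in the same row order, with dotted lines at 2-fold and red for genes that passed the test. HTR3B is red in both panels, PTGER3 in the left at -2.33 and EDNRA in the right at 1.02, and most other intervals cross 0.

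The prostaglandin E2 receptors were the family with the widest range of log2 fold changes in CoA vs Control, from -2.33 to 0.46. PTGER3 encodes the EP3 receptor, which lowers cyclic AMP and is known for contraction in vessels. Its brightest probe read 11.84, 11.63, 11.99 and 12.01 on the Control arrays, and 7.0, 9.85, 11.79 and 9.50 on the CoA arrays. On Corrected replicates 1, 2 and 4 it read 12.05, 10.35 and 10.07, and on Corrected replicate 3 it read 8.88. The Control arrays lay within 0.4 of each other, CoA replicates 1, 2 and 4 fell below all of them, and CoA replicate 3 lay inside the Control range, so the groups overlapped. The mean was 11.87 ± 0.18 in Control and 9.53 ± 1.97 in CoA (SD, n = 4 each).

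PTGER3 was thus 5.04-fold lower in CoA, a log2 fold change of -2.33 (95% interval -4.13 to -0.53). The unadjusted limma p was 0.0158, the adjusted p 0.286 and the exact two-sided permutation p 0.0571, where 4 arrays against 4 cannot go below 0.0286. Corrected differed from Control by -1.04 (interval -2.99 to 0.90, adjusted p = 0.783), and CoA from Corrected by -1.29 (interval -3.23 to 0.66), so neither passed the test. The CoA vs Control fold change ranged from -3.28 to -1.49 over the alternative analyses, with the smallest size when CoA replicate 1 was left out and -3.09 when CoA replicate 3 was, and it was -2.44 without CoA replicate 2. It passed the test in 27 of 28 of them, the exception being a linear model without moderation.

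The other 2 PTGER3 probes, which lie on another transcript of the gene, gave a larger difference. The first of them read 11.10, 11.54, 11.64 and 11.72 on the Control arrays and 5.19, 6.65, 12.51 and 7.20 on the CoA arrays. On Corrected replicates 1, 2 and 4 it read 12.09, 10.15 and 11.65. CoA replicate 3 was again the exception, here above every Control array, and the other 3 CoA arrays were below all Control and Corrected arrays. This probe was 12.2-fold lower in CoA vs Control (log2 fold change -3.61, adjusted p = 0.280 in limma), and the last probe 14.9-fold lower (-3.90, adjusted p = 0.279), although it was not well above background on CoA replicate 1. Against Corrected, the same probes were 10.6-fold and 11.9-fold lower in CoA and passed the test, each with an exact permutation p of 0.229, while the brightest probe did not pass. With the mean of the 3 probes, PTGER3 also passed the test in CoA vs Corrected, at -2.76.

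Some adipocyte genes were low on the same CoA arrays as PTGER3. Of 10 adipocyte markers listed, 5 had a probe by name (UCP1, ADIPOQ, LEP, LPL and PPARG), and their summed log2 level was 12.2 to 13.8 in Control, 8.97 to 12 in CoA and 10.9 to 13.2 in Corrected replicates 1, 2 and 4. PPARG, the transcription factor of adipocyte differentiation, read 11.4, 9.2, 10.7 and 10.8 on the Control arrays and 5.2, 7.5, 9.2 and 7.5 on the CoA arrays. ADIPOQ, the adipocyte hormone adiponectin, read 4.9 to 7.6 in Control and was not well above background on CoA replicates 1 and 4. CoA replicate 1 was the lowest of the CoA arrays for PTGER3, PPARG, LPL and ADIPOQ, and CoA replicate 3 the highest for all 4. The other adipocyte genes did not follow this order: LEP, the hormone leptin, read 5.31, 6.40, 5.12 and 5.48 on the CoA arrays, lowest on replicate 3, and UCP1, detected on all Control arrays, was detected in CoA on replicate 2 alone. Nor was the order particular to adipocyte genes. Of the CoA arrays, replicate 1 was also the lowest and replicate 3 the highest for HBA of erythroid cells, CD247 of T cells and S100B of nerve. Other markers, such as CD14 and SPP1, did not have this order. The part of the adipocyte genes, or of these other markers, in the PTGER3 result was not tested.

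**Figure D3:**
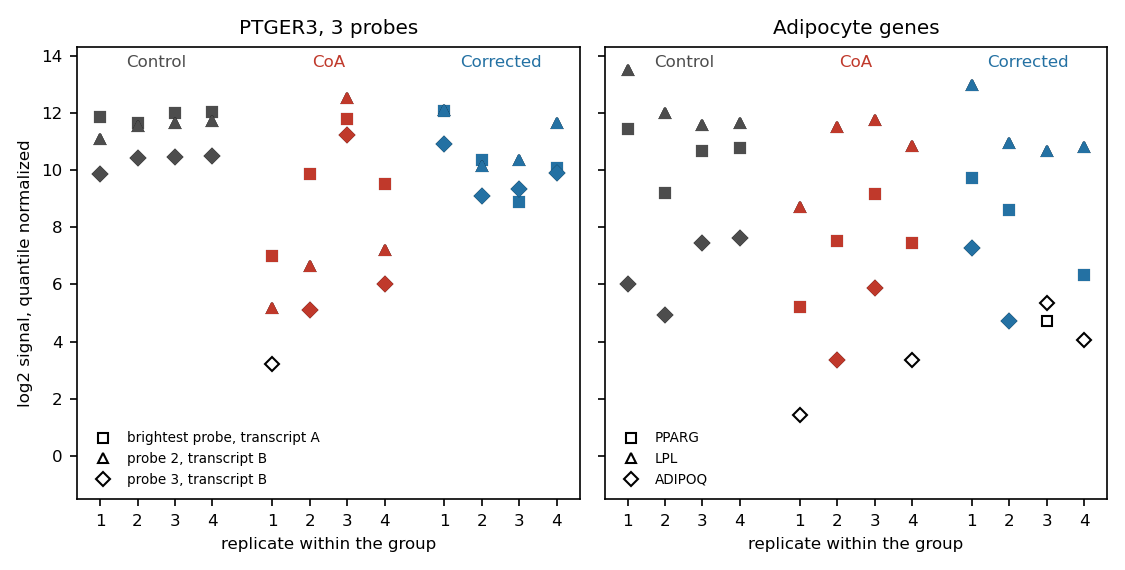
Log2 signal on each of the 12 arrays, by group and replicate, of the 3 PTGER3 probes (left) and of the adipocyte genes PPARG, LPL and ADIPOQ (right), with filled symbols where the probe was well above background. All 3 PTGER3 probes are low on CoA replicates 1, 2 and 4 and within or above the Control range on CoA replicate 3, and these 3 of the 5 adipocyte genes have their highest CoA values on that same replicate.

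The receptors that raise cyclic AMP did not pass the test. PTGER2 encodes the EP2 receptor. Its brightest probe read 16.94, 17.04, 16.76 and 17.18 in Control, 17, 17.07, 16.89 and 16.84 in CoA, and 16.69, 16.84 and 17.13 in Corrected. The 3 groups lay on top of each other, with a log2 fold change of -0.03 in CoA vs Control (interval -0.50 to 0.44) and -0.10 in Corrected vs Control (-0.60 to 0.41). The gene's other 5 probes had mean signals of 3.72 to 4.52, so the probes disagree widely on the signal of this gene. Of these, 4 were tested, and all had negative log2 fold changes in CoA vs Control, down to -0.89, without passing.

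PTGER4 encodes the EP4 receptor, and all 6 of its probes were tested. The brightest read 11.39, 10.22, 10.25 and 10.27 in Control, 10.67, 11.49, 10.93 and 10.89 in CoA, and 10.93, 9.89 and 10.52 in Corrected. Every CoA array was above Control replicates 2 to 4, and Control replicate 1 was inside the CoA range. The log2 fold change was 0.46 in CoA vs Control (interval -0.30 to 1.22, adjusted p = 0.549) and -0.08 in Corrected vs Control (-0.91 to 0.74), and over the 6 probes it ranged from -0.06 to 0.61 and from -0.39 to 0.21.

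Among the 5 serotonin receptor genes, HTR3B was the only one that could be tested. Its single probe read 5.01, 3.49, 4.66 and 5.12 on the Control arrays, 5.94, 6.15, 5.09 and 6.01 on the CoA arrays, and 5.78, 5.64 and 6.45 on Corrected replicates 1, 2 and 4. Corrected replicate 3 was higher still, at 7.51. All 3 Corrected arrays tested lay above all Control arrays, and 3 of the 4 CoA arrays did, CoA replicate 3 falling between the 2 highest Control values. The group means were 4.57 ± 0.75 (SD, n = 4), 5.80 ± 0.48 (n = 4) and 5.96 ± 0.43 (n = 3).

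HTR3B was 2.34-fold higher in CoA vs Control, a log2 fold change of 1.23 (interval 0.35 to 2.11), with an unadjusted limma p of 0.0103, an adjusted p of 0.271 and an exact permutation p of 0.0571. Against Control, Corrected was 2.61-fold higher, at 1.39 (interval 0.44 to 2.33), with an unadjusted limma p of 0.00806, an adjusted p of 0.455 and an exact permutation p of 0.0571, the smallest that 4 arrays against 3 allow. CoA vs Corrected differed by -0.16 (interval -1.1 to 0.79). The CoA vs Control result kept its call in 26 of 28 alternatives and lost it with normexp background correction (0.34) and without Control replicate 2 (0.87), stood at 1.11 without CoA replicate 2, and its adjusted p ranged from 0.00643 to 0.615. The Corrected vs Control result kept its call in 27 of 29, losing it with normexp (0.45) and with the scan run as a fixed block (1.1), a fit that leaves Corrected replicate 2 against Control replicates 1, 2 and 4.

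The remaining serotonin receptors were at or near background. HTR1A, a Gi-coupled receptor best known from the brain, read 1.28 to 2.93 on 10 of the 11 arrays used and 5.61 on CoA replicate 2, and was detected there and on Control replicate 1 only. None of the 5 HTR1B probes, for a receptor known for contraction of cranial arteries, was detected on any array, the brightest reading 1.33 to 2.31 on the 11 arrays used. The brightest HTR1D probe was detected on Corrected replicate 4 alone, at 6.04 against 1.19 to 1.85 elsewhere. HTR5BP was detected on 2 of 12 arrays. A level not above background on these arrays does not show that a transcript was absent.

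The endothelin receptors mediate the response to endothelin-1, EDNRA by contraction of smooth muscle and EDNRB by relaxation through the endothelium or by contraction in muscle. EDNRA read 7.16, 7.55, 7.16 and 7.91 in Control, 7.46, 8.20, 7.38 and 7.71 in CoA, and 8.33, 7.59 and 9.48 in Corrected. Corrected replicates 1 and 4, which shared a scan run with no other group, lay above all Control and CoA arrays. Corrected replicate 2, scanned with Control arrays, lay within both groups. EDNRA was 2.03-fold higher in Corrected vs Control, a log2 fold change of 1.02 (interval 0.09 to 1.95), with an unadjusted limma p of 0.0346, an adjusted p of 0.570 and an exact permutation p of 0.114. This call was lost in 13 of 29 alternatives. Without Corrected replicate 4 the log2 fold change was 0.51, and with the scan run as a fixed block it was 0.05, neither passing. In CoA vs Control it was 0.24 (interval -0.62 to 1.1), or 0.07 without CoA replicate 2. The other 2 EDNRA probes were detected on 1 and 0 arrays.

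EDNRB read 8.22, 8.57, 9.32 and 9.50 in Control, 7.63, 10.30, 9.26 and 8.92 in CoA, and 9.49, 8.61 and 9.04 in Corrected. The groups overlapped, and the CoA arrays had both the lowest and the highest value. The log2 fold change was 0.13 in CoA vs Control (interval -1.01 to 1.27) and 0.15 in Corrected vs Control (-1.08 to 1.38), and its 4 probes stayed between -0.28 and 0.15 in both. Leaving out 1 array turned either sign, to -0.30 without CoA replicate 2 and to -0.08 without Corrected replicate 1. EDN1, the gene of the ligand, differed by 0.48 in CoA vs Control, or by 0.18 without CoA replicate 2, and passed in neither.

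The angiotensin II receptors did not pass either. AGTR1, the type 1 receptor that mediates contraction and growth, read 10.51, 10.15, 10.57 and 10.42 in Control, 11.57, 10.02, 10.86 and 11.08 in CoA, and 10.52, 10.09 and 10.34 in Corrected. CoA replicates 1, 3 and 4 were above every Control and Corrected array, and CoA replicate 2 below all of them. The log2 fold change was 0.47 in CoA vs Control (interval -0.23 to 1.17, adjusted p = 0.503), or 0.76, still short of 2-fold, without CoA replicate 2. It was -0.10 in Corrected vs Control (-0.85 to 0.66) and 0.57 in CoA vs Corrected (-0.19 to 1.32). AGTR2, the type 2 receptor that opposes many type 1 actions, differed by 0.21 and -0.37 against Control in CoA and Corrected, and by -0.11 in CoA without CoA replicate 2. ACE, which makes angiotensin II, differed by 0.17 in CoA vs Control and by -0.33 without that array.

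BDKRB1, the bradykinin B1 receptor that is induced by inflammation, varied most within the groups of all 21 genes in Control and Corrected. It read 8.0, 5.98, 7.28 and 6.16 in Control, 6.93, 9.64, 6.49 and 7.34 in CoA, and 10.02, 6.58 and 5.33 in Corrected. A single array in each operated group, CoA replicate 2 and Corrected replicate 1, stood above all Control arrays. The log2 fold changes of 0.75 and 0.46 against Control had intervals of -1.41 to 2.90 and -1.87 to 2.78, which leave room for differences of 2-fold or more in both directions, and the value in CoA vs Control was 0.07 without CoA replicate 2. The value in Corrected vs Control was -0.90 without Corrected replicate 1.

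**Figure D4:**
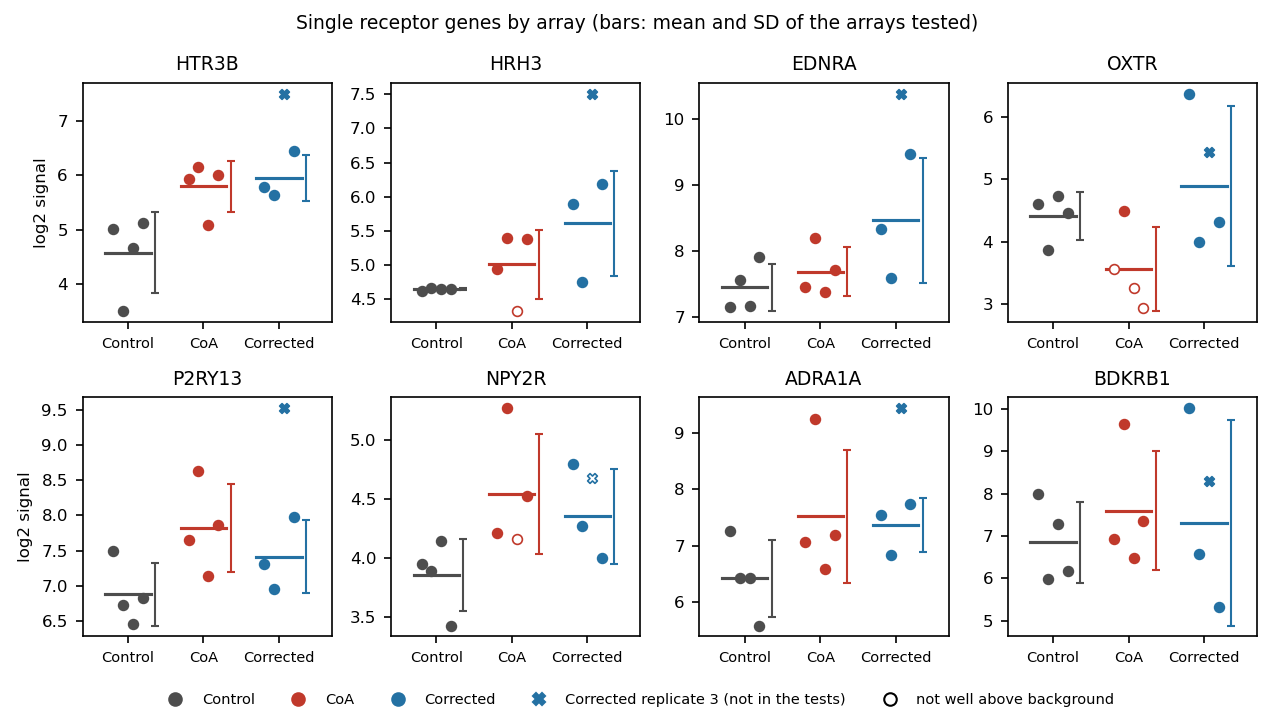
Log2 signal of 8 receptor genes on each array by group, with the mean and SD of the arrays tested beside the points, open symbols where the probe was not well above background and a cross for Corrected replicate 3; the vertical scale differs between panels. HTR3B lies between 5.09 and 6.45 on the CoA and Corrected arrays tested and at or below 5.12 in Control, OXTR is above background on 1 of 4 CoA arrays, and single high arrays stretch BDKRB1.

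Alpha-adrenergic receptors bind noradrenaline and adrenaline, and the alpha-1 subtypes contract arteries. ADRA1A read 7.26, 6.43, 6.43 and 5.58 in Control, 7.06, 9.25, 6.59 and 7.19 in CoA, and 7.54, 6.83 and 7.74 in Corrected. All CoA arrays were above 3 of the 4 Control arrays, but the groups overlapped. The brightest probe was 2.14-fold higher in CoA vs Control (log2 fold change 1.09, interval -0.13 to 2.32, adjusted p = 0.390), which did not pass, and the value was 0.52 without CoA replicate 2 and 1.41, passing, without CoA replicate 3. Corrected differed from Control by 0.94 (interval -0.38 to 2.26), or by 0.40 with the scan run as a fixed block.

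The 5 ADRA1A probes, each detected on all 12 arrays, did not give 1 answer. In CoA vs Control, 2 of them passed the test, at 1.46 (adjusted p = 0.295) and 1.15 (adjusted p = 0.351), while the others gave 1.09, 0.51 and -0.15. The probe at 1.46 read 6.27, 6.12, 5.79 and 5.25 in Control and 6.83, 9.07, 6.30 and 7.06 in CoA, with no overlap. Against Control, 1 probe passed in Corrected, at 1.41 (adjusted p = 0.563), and the other 4 ranged from 0.11 to 1.23.

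The other adrenergic receptor genes were dimmer. ADRA1D, the subtype known for contraction of the aorta in rodents, read 4.69, 4.93, 4.66 and 3.10 in Control, 4.50, 6.04, 4.15 and 3.28 in CoA, and 4.36, 3.84 and 4.22 in Corrected. It was not well above background on Control replicate 4 or on CoA replicates 3 and 4, and differed by 0.14 and -0.20 against Control, with intervals of -1.09 to 1.38 and -1.54 to 1.13. Without CoA replicate 2 the first of these was -0.37. ADRA1B was detected on no array. ADRA2A, which inhibits transmitter release from sympathetic nerves, was detected on all 4 Control arrays at 2.84 to 3.87 and on 1 CoA array at 4.2, and on none of the Corrected arrays, where it read 2.78 to 3.12 on those used. These signals lie close to background, and ADRA2A did not pass the detection filter. A signal of 2.84 counted as detected on Control replicate 1, while 3.28 on CoA replicate 4 and 3.12 on Corrected replicate 4 did not.

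Adenosine is formed from ATP in tissue and dilates most arteries. ADORA2B, the Gs-coupled A2B receptor, read 5.45, 4.71, 5.50 and 5.89 in Control, 3.56, 5.65, 5.33 and 4.33 in CoA, and 6.16, 4.11 and 1.47 in Corrected. The Corrected arrays spanned the whole range of the gene, from the highest to the lowest value, and the lowest was not well above background. The log2 fold change was -0.67 in CoA vs Control (interval -2.50 to 1.16) and -1.47 in Corrected vs Control (interval -3.45 to 0.50, adjusted p = 0.699), and neither passed. The second value became -0.25 without Corrected replicate 4 and -2.60, which passed, without Corrected replicate 1.

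ADORA3, a Gi-coupled receptor known from mast cells, read 3.62 to 4.71 in Control, 4.23 to 4.89 in CoA and 4.10 to 4.70 in Corrected, and differed from Control by 0.41 (interval -0.23 to 1.05) and 0.19. ADORA1 was detected on Corrected replicate 4 alone, at 4.88, against 1.23 to 1.95 on the other arrays used.

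P2RY13 encodes an ADP receptor known from blood and immune cells. It read 7.5, 6.74, 6.46 and 6.83 in Control, 7.65, 8.64, 7.14 and 7.87 in CoA, and 7.31, 6.95 and 7.98 in Corrected. Of the CoA arrays, 3 lay above every Control array and CoA replicate 3 lay below Control replicate 1. It was 1.92-fold higher in CoA vs Control, a log2 fold change of 0.94 (interval 0.12 to 1.76), with an unadjusted limma p of 0.0278, an adjusted p of 0.311 and an exact permutation p of 0.0571. This was short of 2-fold, and the value was 0.67 without CoA replicate 2. Corrected differed from Control by 0.53 (interval -0.35 to 1.42). Macrophage markers, with 3 of 9 genes having a probe by name (CD14, SPP1 and MSR1), had a summed log2 level of 10.7 to 12.7 in Control, 12.7 to 14.4 in CoA and 12.4 to 13.2 in Corrected replicates 1, 2 and 4. Of these markers SPP1 differed most, with means of 10.6, 13.4 and 12.5 in Control, CoA and Corrected. The means were 9.37, 9.73 and 9.90 for CD14, and 6.15, 6.93 and 5.85 for MSR1. CD14 and MSR1 overlapped with Control in both groups, and SPP1 in Corrected. The part of these markers in the P2RY13 values was not tested.

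Neuropeptide Y is released with noradrenaline from sympathetic nerves, and its Y1 receptor, NPY1R, contracts arteries. NPY1R read 4.47, 6.04, 4.00 and 4.13 in Control, 5.76, 5.52, 5.29 and 4.97 in CoA, and 4.54, 5.34 and 4.71 in Corrected. All CoA arrays exceeded 3 of the 4 Control arrays, and Control replicate 2 was the highest array of all. The log2 fold change in CoA vs Control was 0.73 (interval -0.23 to 1.68, adjusted p = 0.453), and 1.19, which passed the test, without Control replicate 2. The gene's 5 probes were all positive in that comparison, from 0.23 to 1.01, and none passed. In CoA vs Corrected, 1 of them passed, at 1.64 (adjusted p = 1.00 in limma).

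NPY2R encodes the presynaptic Y2 receptor. It read 3.95, 3.89, 4.15 and 3.43 in Control and 4.21, 5.27, 4.16 and 4.53 in CoA, so the groups did not overlap, although the highest Control and the lowest CoA value were nearly equal and that CoA value, on replicate 3, was not well above background. This was the only 1 of the 21 genes without overlap in CoA vs Control, where 10.2% of all probes had none. Its log2 fold change was 0.69 (interval -0.00 to 1.38, adjusted p = 0.353 in limma), with an exact permutation p of 0.0286, the smallest possible, and 0.45 without CoA replicate 2. Its unadjusted limma p of 0.0503 and fold of 1.61 both missed the criterion. Corrected differed from Control by 0.50 (interval -0.25 to 1.24).

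NPY6R and NPY4R are further receptors of the family. The brightest NPY6R probe differed by 0.54 in both comparisons with Control, but by 0.21 in CoA without CoA replicate 2 and by -0.21 in Corrected without Corrected replicate 4. Its second probe, detected on 8 arrays, read 3.11, 2.32, 2.90 and 3.40 in Control and 4.17, 4.30, 3.77 and 4.2 in CoA. These groups did not overlap, and this dim probe passed the test at 1.17, with an adjusted p of 0.227 and an exact permutation p of 0.0286. NPY4R differed by -0.45 in CoA vs Control (interval -1.24 to 0.34), or -0.76 without CoA replicate 2, and by -0.25 in Corrected vs Control.

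HRH3, the histamine H3 receptor that limits transmitter release from nerves, had the tightest Control arrays of all 21 genes. It read 4.63, 4.67, 4.66 and 4.64 in Control, 4.94, 5.40, 4.32 and 5.39 in CoA, and 5.89, 4.75 and 6.19 in Corrected, with 7.5 on Corrected replicate 3. Every Corrected array lay above every Control array, and replicates 1, 3 and 4, which shared a scan run with no other group, were the highest. HRH3 and HTR3B were the 2 of 21 genes without overlap in Corrected vs Control, where 8.85% of all probes had none. HRH3 was 1.95-fold higher in Corrected, a log2 fold change of 0.96 (interval 0.13 to 1.79), with an unadjusted limma p of 0.0273, an adjusted p of 0.556 and an exact permutation p of 0.0571. This was short of 2-fold, and the value was 0.67 without Corrected replicate 4 and 0.10 with the scan run as a fixed block. CoA differed from Control by 0.37 (interval -0.41 to 1.14). No receptor gene was without overlap in CoA vs Corrected (4.24% of all probes).

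OXTR encodes the oxytocin receptor, which couples to Gq. It read 4.61, 3.87, 4.73 and 4.46 in Control, 3.56, 4.49, 3.25 and 2.93 in CoA, and 6.37, 4.00 and 4.32 in Corrected. CoA replicates 1, 3 and 4 were below every other array used and not well above background, so CoA replicate 2 was the only CoA array on which the gene was detected. OXTR was 2.53-fold lower in CoA vs Corrected, a log2 fold change of -1.34 (interval -2.56 to -0.11), with an unadjusted limma p of 0.0349, an adjusted p of 1.00 and an exact permutation p of 0.171. The call was lost in 8 of 27 alternatives, over which the value ranged from -1.94 to -0.36, and it was -0.60 without Corrected replicate 1. In CoA vs Control the log2 fold change was -0.86 (interval -1.99 to 0.27, adjusted p = 0.455), which did not pass, and -1.17 without CoA replicate 2, which did. Corrected differed from Control by 0.48 (interval -0.75 to 1.70), or by -0.26 without Corrected replicate 1.

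Receptors for tachykinins and dopamine completed the set. TACR2, the neurokinin A receptor of smooth muscle, differed by -0.01 in CoA vs Control (interval -0.75 to 0.74) and by -0.69 in Corrected vs Control (-1.5 to 0.11). TACR3, a neurokinin receptor known from the brain, was detected on 2 of 12 arrays. DRD1, the Gs-coupled dopamine D1 receptor, was detected on none, at 1.22 to 1.54.

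Probes of the same gene could be compared for 8 receptor genes with at least 2 tested probes. Over all 45 receptor probes tested, 7 passed in CoA vs Control (8.81% of all probes did): all 3 of PTGER3, 2 of 5 of ADRA1A, the HTR3B probe and 1 of 2 of NPY6R. Against Control, 3 passed in Corrected (5.39% of all probes), 1 each of HTR3B, EDNRA and ADRA1A. In CoA vs Corrected 4 passed (2.77% of all probes), 2 of PTGER3, 1 of NPY1R and that of OXTR. In the comparisons with Control, ADRA1A and NPY6R thus had another probe that passed where the brightest did not, and in CoA vs Corrected PTGER3 and NPY1R did. No probe of PTGER2, PTGER4, EDNRB or NPY2R passed in any of the 3 comparisons.

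**Figure D5:**
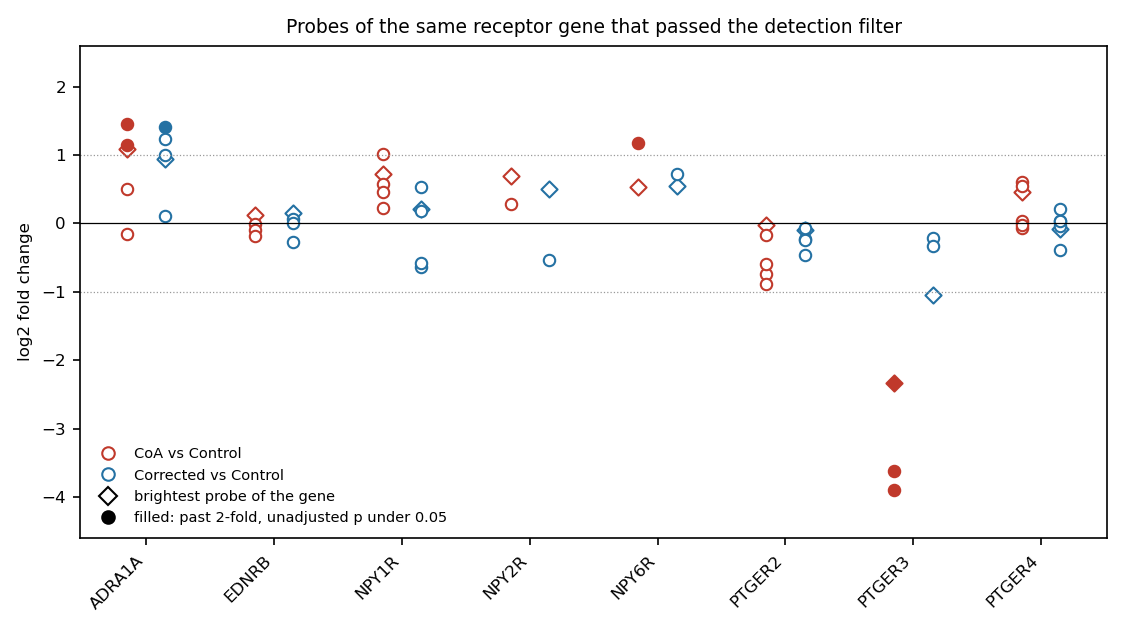
Log2 fold change in CoA vs Control (red) and Corrected vs Control (blue) of each tested probe of the 8 receptor genes with more than 1 tested probe, with diamonds for the brightest probe, filled symbols for probes that passed the test and dotted lines at 2-fold. The 3 PTGER3 probes lie between -2.33 and -3.90 in CoA vs Control and all passed, while the ADRA1A probes spread from -0.15 to 1.46.

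Genes that act with these receptors were counted by list. Of 38 genes for ligands and their synthesis, 12 had a probe by name and 9 were tested. In CoA vs Control 2 of the 9 rose (3.59% of all probes) and 8 had a positive log2 fold change (54.5% of all probes), with a median of 0.59, against 0.06 for all probes. Without CoA replicate 2, 1 of the 9 rose, 7 were positive and the median was 0.28, against 0.08 for all probes. NPY, the ligand of the NPY receptors, read 4.08 to 4.62 in Control, 5.49 to 8.48 in CoA and 5.66 to 6.10 in Corrected replicates 1, 2 and 4, with no overlap between Control and either group. Its log2 fold change was 2.72 in CoA vs Control (adjusted p = 0.217 in limma, exact permutation p = 0.0286) and 1.49 in Corrected vs Control (adjusted p = 0.563), both passing. NPY passed in all 27 alternatives in CoA and in 19 of 28 in Corrected, and the CoA value was 2.42 without CoA replicate 2. PTGS2, the inducible cyclooxygenase that makes the precursor of prostaglandin E2, rose by 1.00 on the log2 scale in CoA (adjusted p = 0.335) and by 1.03 in Corrected (adjusted p = 0.596), and overlapped with Control in both. Its call held in 13 of 27 alternatives in CoA and in 10 of 28 in Corrected, and both calls were lost without CoA replicate 2, through the p and not the fold. In CoA vs Corrected PTGDS, a prostaglandin D synthase, was higher by 1.91 (adjusted p = 1.00).

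Of 16 genes that remove transmitters, SLC22A3 and MME were tested. MME, the peptidase neprilysin that degrades bradykinin, endothelin and tachykinins, was lower by -2.35 in CoA vs Control (adjusted p = 0.339 in limma), reading 7.11 to 7.33 in Control and 3.48, 2.84, 7.61 and 5.47 in CoA. CoA replicates 1, 2 and 4 were below all Control arrays and CoA replicate 3 was above them, and the probe was not well above background on CoA replicates 1 and 2. The call held in 14 of 26 alternatives, and the value was -1.68, not passing, without CoA replicate 2. Of 54 genes for G proteins, second messengers and their targets, 9 had a probe by name and 6 were tested. ADCY5, an adenylyl cyclase that makes cyclic AMP, was lower by -1.38 in CoA vs Control (adjusted p = 0.269), at 5.17 to 6.70 in Control and 4.29 to 5.13 in CoA with no overlap. No other gene of these last 2 lists passed in any of the 3 comparisons.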

How the data were processed

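The authors deposited 1 Agilent Feature Extraction file (version 11.0.1.1) per rabbit, from single-colour Cy3 arrays with 43803 spots, whose processed intensity had been background-subtracted by that software. Outlier-flagged spots (8 to 22 per array) were removed, log2 intensities were quantile normalized over the 12 arrays, and spots of a probe were averaged; no spot was saturated. Probes were named by matching RefSeq accessions to the RefSeq table of assembly mOryCun1.1, which named 3368 of 43603 probes (7.72%). The array headers name another build, oryCun2, so no coordinates are given.

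Probes well above background on at least 8 of 12 arrays were fitted with limma 3.58.1 in R 4.3.3 on 11 arrays, all 3 groups together, with Benjamini-Hochberg adjustment over all 27283 probes. The study gives the normalization, the filter and several fold bins, the lowest of which is the criterion used here, but does not name the test. P-values measure the spread between rabbits, with each array taken as a separate rabbit, and the small number of arrays limits the precision. Single values were also tested by exact two-sided permutation of arrays. Intervals are 95% intervals of the fit. Alternatives varied the filter, normalization, background correction, arrays, model, blocks and probe choice.

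All receptor genes of the symbol rule with a probe named here are accounted for, which leaves out P2RY10. Values on every array are given for those past the criterion in any comparison, for those without overlap and for receptors best known in the arterial wall. Pathway genes are named where they passed. The genes, the pathway lists and the markers were chosen with earlier results of these data known. HTRA1 to HTRA4, AGTRAP and PTGFRN fit the symbol rule without being such receptors, and no probe was named for them here. For marker lists whose group levels are not given above, summed log2 levels follow in the order Control, CoA and Corrected. They were 6.02 to 6.73, 5.94 to 7.27 and 6.32 to 7.17 for endothelium. For fibroblasts and matrix they were 18.0 to 18.5, 18.2 to 18.5 and 17.2 to 18.7. T cells had 7.11 to 8.31, 6.37 to 8.12 and 5.86 to 6.80, and nerve 8.87 to 10.3, 8.22 to 11.0 and 8.10 to 10.3. Cardiac muscle had 11.0 to 12.3, 12.4 to 14.7 and 11.5 to 13.2. Erythroid cells and platelets had 16.8 to 17.9, 11.4 to 15.7 and 15.5 to 17.6. The T cell markers went different ways. Means in the same order were 5.74, 3.29 and 2.54 for CD3E and 6.18, 3.99 and 3.73 for CD247. They were 3.77, 4.07 and 3.65 for CD4 and 3.60, 3.97 and 3.94 for CD28. RAG2 had 4.90, 6.11 and 5.01, with 7.65 on CoA replicate 2. No B cell marker had a probe by name.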

Additional observations from a re-analysis of the deposited data

Results flagged for a closer look

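Among 60 groups of 4 arrays, 1 array lay far from the other 3 in 5, where chance gives about 1 in 20. PTGER4 read 11.4 on Control replicate 1 against 10.2 to 10.3 on the other Control arrays. HTR1A read 5.61 on CoA replicate 2 against 1.29 to 1.55 on the other CoA arrays, and was detected on that one alone. ADRA1D read 3.10 on Control replicate 4, not well above background there, against 4.66 to 4.93. ADORA1 read 1.63 on CoA replicate 2 against 1.23 to 1.26, and HTR1D 1.85 on Control replicate 4 against 1.23 to 1.25, with no array of either group above background.

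On Corrected replicate 3, which was left out of the main fit, 15 of the 30 receptor genes were well above background and higher than on every Control array. This count was not made for all probes, so whether it is particular to receptor genes was not tested. This array had 45.6% of its spots well above background, the lowest share of the 12, and the median of the 21 tested genes was 7.96 on it.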

How the results depend on the processing

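No receptor gene that passed the test changed direction in any alternative. The share of all probes that passed in the same fit is given in brackets after each count. In CoA vs Control, where 2 genes passed, the count was 1 with normexp background correction (3.74%) and 1 without moderation (6.03%). It was 6 with array weights on all 12 arrays (19.1%). There 11 receptor genes had an adjusted p under 0.05 in limma, but 10928 of all 27283 probes did too. Leaving out single arrays gave 2 to 4 (5.66% to 12.9%). In Corrected vs Control, also with 2, it was 0 with normexp (2.14%) and 4 with all 12 arrays (10.4%). It was 1 with 75th percentile scaling (5.41%), with only the groups compared (5.56%) and without moderation (3.07%). It was also 1 with the scan day as a fixed block (4.05%) and without CoA replicate 2 and Corrected replicate 4 (3.51%). With the scan run as a fixed block, which leaves Corrected replicate 2 alone against Control, the median log2 fold change of the 21 genes was -0.22. Leaving out single arrays gave 1 to 3 (2.80% to 8.81%). In CoA vs Corrected, with 1, it was 0 with detection on all 12 arrays (1.87%) and with normexp (0.473%). It was also 0 with only the groups compared (2.06%) and without moderation (1.03%). It was 2 with the mean of a gene's probes (2.75%) and 3 with all 12 arrays (4.26%). Leaving out single arrays gave 0 to 3 (2.35% to 6.52%). The causes were not tested. The replicate block gave 2, 1 and 0 genes in these comparisons in turn (9.28%, 4.05% and 4.24%). Deviations of same-numbered arrays had correlations from -0.445 to 0.448, with 0.296 and 0.448 for replicates 1 and 2 in Corrected vs Control. No pairing by replicate number is described, and whether the numbers pair rabbits was not tested. The scan run stood in for the slide. As a random block (correlation -0.148) it left 3 genes in CoA vs Control (11.8%). HTR3B had an adjusted p of 0.0478 in limma there, where 869 of all 27283 probes had one under 0.05. As a fixed block the scan run could not be fitted for CoA. With the much alike Control replicates 3 and 4 taken as 1 sample, 2, 2 and 1 receptor genes passed in the 3 comparisons in turn (5.74%, 4.01% and 2.39%). Over all probes the count in CoA vs Control was 2404, or 1566 with those Control arrays as 1 sample. It ranged from 1020 with normexp to 5209 with array weights. In Corrected vs Control it was 1471, from 584 with normexp to 2851 with all 12 arrays, and between CoA and Corrected 755, from 129 with normexp to 1779 without Corrected replicate 2. Dim genes near background have the least certain fold changes.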
